A study of Mus musculus with 6 samples.

Results

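The Notch genes measured here were 10 genes of 1 signalling pathway, chosen by name: the receptors Notch1, Notch2, Notch3 and Notch4, the ligands Jag1, Jag2, Dll1 and Dll4, and the target genes Hey1 and Heyl. All 10 were found by gene symbol among 54929 rows of the count table, and all 10 were among the 14807 genes with enough reads to be tested. The tissue was the left ventricle of wild-type (WT) C57BL/6 mice that had undergone TAC (transverse aortic constriction), an operation that narrows the aorta and overloads the left ventricle with pressure. In 3 libraries the mice had been injected intraperitoneally with anti-PD-1 antibody, which blocks an inhibitory receptor of activated T cells, and in the other 3 with anti-IgG antibody. Both antibodies were given at 10 mg/kg every 3 days from day 14, and the time given for each sample is 5 weeks. Every mouse had had TAC, so each value below is from a pressure-overloaded ventricle and none is from an unoperated one. The labels do not say that each library came from its own animal, so p-values cover the spread among these 6 samples and no more.

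Notch receptors are single-pass membrane proteins that are activated by Jagged and Delta-like ligands on a neighbouring cell. Binding lets a metalloprotease and then the gamma-secretase complex cut the receptor, and the freed intracellular domain enters the nucleus, joins the DNA-binding protein RBPJ and Mastermind co-activators, and switches on genes of the Hes and Hey families of repressors. In blood vessels of the mouse, Notch1 and Notch4 act in endothelial cells, Notch3 in smooth muscle cells and pericytes, and Dll4 marks arterial and sprouting endothelium. The comparison addresses how blocking PD-1 alters gene expression in the overloaded ventricle.

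With anti-PD-1, Notch3 and Notch1 rose and the other 8 Notch genes did not pass the test (quasi-likelihood F test of edgeR, with p-values adjusted over all tested genes by Benjamini-Hochberg and a threshold of 0.05). That is 2 of 10 genes, or 20.0%, against 21.1% of all tested genes past the threshold, of which 10.3% were higher and 10.8% lower with anti-PD-1. The share of Notch genes called is close to that of the whole table. In CPM, reads scaled to library size by TMM, the 2 groups did not overlap in 7 of the 10 genes, against 41.0% of all tested genes. The median log2 fold change of the 10 genes was 0.09, and that of all tested genes was -0.03. The members' median was -0.09 with the gene length trend removed and -0.29 with the transcript length trend removed, as described below. The median of all tested genes was 0.006 and -0.019 in these settings. Libraries held 18063344 to 21093163 counted reads, and the 10 genes had 87 to 3341 reads in a library, fewest for Dll1 and most for Notch3. Levels are given as the authors' FPKM, which divide reads by gene length and so can be compared between genes, and fold changes come from the raw counts (anti-PD-1 over anti-IgG, with the standard error, SE). In whole ventricle, fewer cells of a type and less RNA per cell cannot be told apart.

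**Figure D1:**
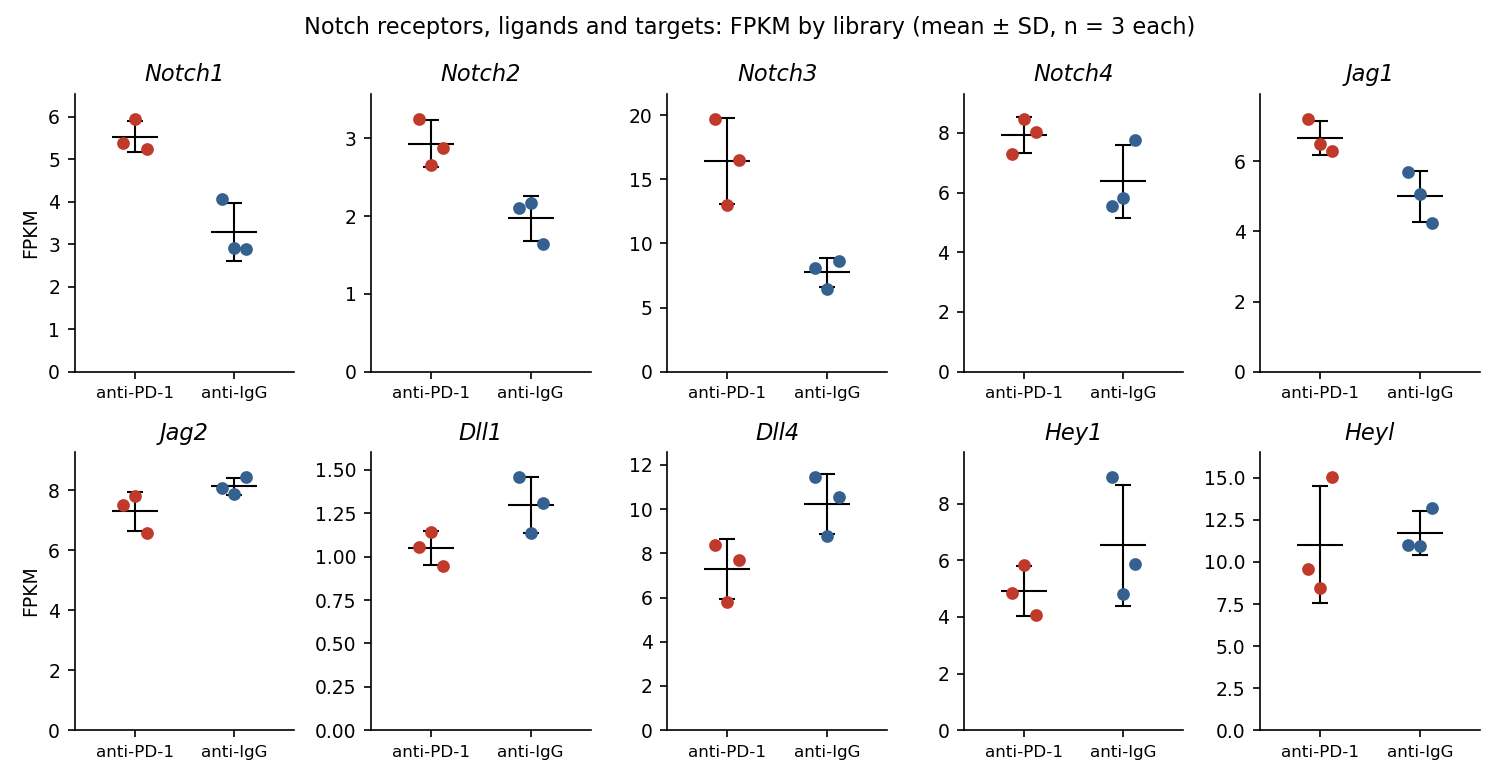
FPKM of the 10 Notch genes in each library (points), with the mean and SD of 3 libraries a group (bars); anti-PD-1 is at the left of each panel and each panel has its own axis from 0. Notch3 lies at 13.0 to 19.7 FPKM under anti-PD-1 and 6.45 to 8.64 FPKM under anti-IgG, while Heyl overlaps between the groups.

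The start regions of the 2 genes that rose, Notch3 and Notch1, are printed beside that of Notch4, the receptor with the fewest CG pairs there. Each sequence is the 250 bases before the RefSeq start site, in GRCm38.p6 and on the gene's own strand, with CG pairs in capitals. They lie at chr17:32166891-32167140 on the minus strand for Notch3, chr2:26503823-26504072 on the minus strand for Notch1 and chr17:34564045-34564294 on the plus strand for Notch4. The Notch1 region lies inside the span of the counted gene (26457903 to 26516663), so it is not at the 5' end of that span.
Notch3: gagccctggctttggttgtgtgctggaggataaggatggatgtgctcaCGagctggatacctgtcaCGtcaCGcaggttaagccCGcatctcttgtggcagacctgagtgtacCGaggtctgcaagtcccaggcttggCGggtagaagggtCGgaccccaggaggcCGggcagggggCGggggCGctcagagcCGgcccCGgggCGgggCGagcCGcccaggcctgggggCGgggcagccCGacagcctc
Notch1: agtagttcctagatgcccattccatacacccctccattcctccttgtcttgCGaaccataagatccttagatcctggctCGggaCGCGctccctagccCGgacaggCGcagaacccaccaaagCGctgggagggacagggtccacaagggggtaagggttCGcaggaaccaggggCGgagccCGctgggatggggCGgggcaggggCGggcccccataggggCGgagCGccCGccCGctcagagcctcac
Notch4: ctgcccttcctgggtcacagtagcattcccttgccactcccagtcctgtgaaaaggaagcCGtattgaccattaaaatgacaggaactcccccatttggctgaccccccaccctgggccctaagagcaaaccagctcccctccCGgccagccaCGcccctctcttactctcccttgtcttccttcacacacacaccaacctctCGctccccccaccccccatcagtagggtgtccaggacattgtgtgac
The 3 sequences hold 17, 16 and 4 CG pairs, and the median over all 32851 RefSeq start regions is 6. RefSeq sequences were matched for 8 of the 10 genes, with 9 start sites. Among these 9 regions the CG pairs ranged from 4 for Notch4 to 54 for Jag2. Notch2 had 34, Jag1 20 and Dll4 14. These genes did not pass the test, so the CG count does not set the genes that rose apart. The core of the RBPJ motif, TGGGAA on either strand (TTCCCA on the other), was found in 0 of the 9 regions and in 21.6% of all start regions of this length. Hey1 and Heyl were the members not matched.

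Notch3 had the largest fold change of the 10 genes. This receptor of vascular smooth muscle cells and pericytes (ENSMUSG00000038146, mm10 chromosome 17, 32120820 to 32166880, minus strand) reached 19.7, 13.0 and 16.5 FPKM in the hearts given anti-PD-1 and 8.11, 6.45 and 8.64 FPKM in those given anti-IgG (replicates 1 to 3 in order, here and below). All 3 anti-PD-1 libraries were above all 3 anti-IgG libraries. In CPM it averaged 139 ± 26.9 under anti-PD-1 and 66.8 ± 9.37 under anti-IgG (SD, n = 3 each), and its log2 fold change was 1.06 (SE 0.20; adjusted p = 0.00864 by edgeR). The rise lost its call without anti-IgG library 2, where the log2 fold change was 0.94 (edgeR adjusted p = 0.058), and survived the loss of any other 1 library.

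Notch1, the receptor that acts in endothelial cells during vessel growth (ENSMUSG00000026923, chromosome 2, 26457903 to 26516663, minus strand), stood at 5.39, 5.96 and 5.26 FPKM under anti-PD-1 and 4.07, 2.92 and 2.88 FPKM under anti-IgG. The groups did not overlap. Its CPM were 83.4 ± 7.04 under anti-PD-1 and 50.3 ± 10.02 under anti-IgG, and the log2 fold change was 0.73 (SE 0.19; adjusted p = 0.0227 by edgeR). This call ended without anti-PD-1 library 1 or 2 or anti-IgG library 2 or 3 (edgeR adjusted p from 0.0514 to 0.110, log2 fold change 0.64 to 0.76).

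Notch2, a broadly expressed receptor (ENSMUSG00000027878, chromosome 3, 98013527 to 98150361, plus strand), had 3.25, 2.66 and 2.88 FPKM under anti-PD-1 and 2.10, 2.17 and 1.64 FPKM under anti-IgG. The groups did not overlap, yet its log2 fold change of 0.55 (SE 0.18) missed the threshold (edgeR adjusted p = 0.0555). It passed with RLE scaling (edgeR adjusted p = 0.0481), without mitochondrially encoded genes (0.0486) and by DESeq2 (adjusted p = 0.0386).

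Notch4, a receptor largely restricted to endothelium (ENSMUSG00000015468, chromosome 17, 34564268 to 34588503, plus strand), had 7.28, 8.47 and 8.02 FPKM under anti-PD-1 and 5.55, 5.80 and 7.76 FPKM under anti-IgG. Anti-IgG library 3 lay above the lowest anti-PD-1 library, and the difference did not pass (log2 fold change 0.29, SE 0.19; adjusted p = 0.275 by edgeR).

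Among the ligands 0 of 4 passed the threshold by edgeR, with 2 at an unadjusted p under 0.05. DESeq2 and limma-voom also called 0 of 4, each with 2 at that unadjusted level. Such a level was common in the whole table: Jag1, at an unadjusted p of 0.0472 by edgeR, ranked 5367 of the 14807 tested genes by p. Jag1, a ligand of arterial endothelium and smooth muscle (ENSMUSG00000027276, chromosome 2, 137081456 to 137116644, minus strand), had 7.21, 6.49 and 6.29 FPKM under anti-PD-1 and 5.70, 5.06 and 4.24 FPKM under anti-IgG. All anti-PD-1 libraries lay above all anti-IgG libraries, with a log2 fold change of 0.39 (SE 0.18; adjusted p = 0.130 by edgeR).

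Dll4, the Delta-like ligand of arterial endothelium and sprouting tip cells (ENSMUSG00000027314, chromosome 2, 119325784 to 119335962, plus strand), lay on the other side. It had 8.39, 5.78 and 7.69 FPKM under anti-PD-1 and 11.4, 8.77 and 10.5 FPKM under anti-IgG. The highest anti-PD-1 library was below the lowest anti-IgG library, and the log2 fold change of -0.52 (SE 0.19) missed the threshold (edgeR adjusted p = 0.0739; 0.0436 with upper quartile scaling). An antisense transcript, Gm14207, shares 214 of the 3852 exon bases of Dll4 and was counted at 5, 7 and 6 reads under anti-PD-1, against 28, 26 and 21 under anti-IgG. Whether counting used strand is not stated, so reads of the shared bases cannot be told apart.

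Jag2, another Jagged ligand (ENSMUSG00000002799, chromosome 12, 112907819 to 112929776, minus strand), had 7.52, 7.81 and 6.57 FPKM under anti-PD-1 and 8.08, 7.87 and 8.43 FPKM under anti-IgG, and the nearest libraries of the groups were almost level. Its log2 fold change was -0.18 (SE 0.16; adjusted p = 0.460 by edgeR). Dll1 (ENSMUSG00000014773, chromosome 17, 15367354 to 15376872, minus strand), a Delta-like ligand, was the least abundant of the 10 genes at 1.06, 1.14 and 0.949 FPKM under anti-PD-1 and 1.46, 1.14 and 1.31 FPKM under anti-IgG. The groups met at their nearest libraries, and the log2 fold change was -0.33 (SE 0.25; adjusted p = 0.370 by edgeR). The noncoding RNA A930024N18Rik overlaps 867 of its 4219 exon bases on the opposite strand and had 0 to 20 reads a library. For Notch1, Notch2 and Notch3 the annotated genes that share exon bases had at most 14 reads in any library.

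Both target genes failed the test, with 0 of 2 called by edgeR, DESeq2 or limma-voom and 0 at an unadjusted p under 0.05. Hey1, a repressor induced by Notch in arterial endothelium (ENSMUSG00000040289, chromosome 3, 8663359 to 8667256, minus strand), had 4.84, 5.82 and 4.06 FPKM under anti-PD-1 and 8.93, 4.81 and 5.85 FPKM under anti-IgG. The groups overlapped, and anti-IgG library 1 stood well above the other libraries. Its log2 fold change was -0.43 (SE 0.25; adjusted p = 0.230 by edgeR) and -0.14 without that library. Heyl, a related repressor of vascular smooth muscle cells (ENSMUSG00000032744, chromosome 4, 123233556 to 123249875, plus strand), had 9.60, 8.48 and 15.0 FPKM under anti-PD-1 and 11.0, 11.0 and 13.2 FPKM under anti-IgG. Anti-PD-1 library 3 was the highest and anti-PD-1 library 2 the lowest of the 6. The log2 fold change was -0.11 (SE 0.22; adjusted p = 0.740 by edgeR), and 0.05 without anti-PD-1 library 2.

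In anti-PD-1 libraries the order of mean FPKM was Notch3 (16.4), Heyl (11.0), Notch4 (7.92), Jag2 (7.30), Dll4 (7.29), Jag1 (6.67), Notch1 (5.54), Hey1 (4.91), Notch2 (2.93) and Dll1 (1.05). The ranges of Notch3 and Heyl overlapped, as did those of neighbours from Notch4 down to Jag1 and of Notch1 and Hey1, while Heyl was above Notch4, Jag1 above Notch1, Hey1 above Notch2 and Notch2 above Dll1 without overlap. In anti-IgG libraries Heyl came highest (11.7 FPKM), followed by Dll4 (10.2), Jag2 (8.13), Notch3 (7.74), Hey1 (6.53), Notch4 (6.37), Jag1 (5.00), Notch1 (3.29), Notch2 (1.97) and Dll1 (1.30). There, neighbours did not overlap between Dll4 and Jag2, Jag1 and Notch1, Notch1 and Notch2, or Notch2 and Dll1. Notch3 took rank 1 in anti-PD-1 libraries and rank 4 in anti-IgG libraries. The order depends on the length used: the deposited length of Notch1 is 14232 bp and its longest coding GENCODE transcript is 9488 bp, and per base of that transcript Notch1 had rank 5 of 10 with anti-PD-1 and rank 8 with anti-IgG, and Notch3 ranks 1 and 6.

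Summed over the 4 receptors, FPKM were 35.6, 30.1 and 32.7 under anti-PD-1 and 19.8, 17.3 and 20.9 under anti-IgG, 1.69 times as high on average. The 4 ligands summed to 24.2, 21.2 and 21.5 FPKM under anti-PD-1 and 26.7, 22.8 and 24.5 FPKM under anti-IgG, a ratio of 0.904, and these ranges overlapped. Receptor FPKM were 1.42 to 1.52 times the ligand FPKM within each anti-PD-1 library and 0.744 to 0.854 times within each anti-IgG library. The groups were apart in this ratio, which does not depend on how libraries are scaled. It was looked at after the values were seen, and it was not tested. The receptors are longer than the ligands (8044 to 14232 bp against 3852 to 6965 bp). A length trend that differs between libraries can therefore move this ratio, and it was not computed with such a trend removed.

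**Figure D2:**
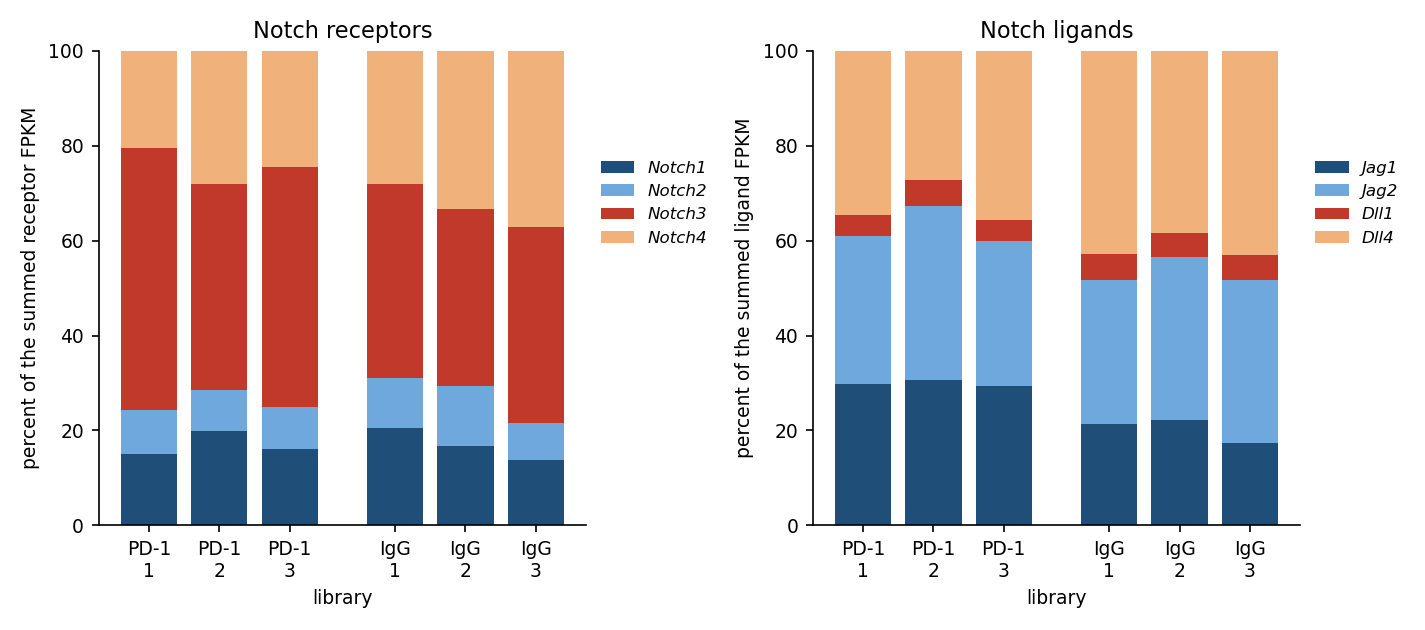
Share of each receptor (left) and each ligand (right) in the summed FPKM of its family, 1 bar a library, with the 3 anti-PD-1 bars at the left of the 3 anti-IgG bars. Notch3 takes 43.2 to 55.3% of the receptor FPKM in anti-PD-1 libraries and 37.2 to 41.3% in anti-IgG libraries, and Jag1 takes 29.3 to 30.6% of the ligand FPKM in anti-PD-1 libraries and 17.3 to 22.2% in anti-IgG libraries.

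Within the receptors, Notch3 made up 49.7 ± 6.09% of the summed FPKM under anti-PD-1 and 39.8 ± 2.25% under anti-IgG (SD, n = 3 each), and the groups did not overlap. The exact 2-sided permutation p was 0.1, the smallest that 3 against 3 libraries allow, and 0.4 adjusted over the 4 receptors. Notch4 made up 24.4 ± 3.86% under anti-PD-1 and 32.8 ± 4.58% under anti-IgG (exact permutation p = 0.2). The share of Notch1 was 17.0 ± 2.46% under anti-PD-1 and 17.0 ± 3.39% under anti-IgG (exact permutation p = 1), a difference smaller than the spread between libraries, and that of Notch2 was 8.92 ± 0.18% under anti-PD-1 and 10.3 ± 2.36% under anti-IgG (exact permutation p = 0.4).

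Among the ligands, Jag1 held 29.9 ± 0.67% under anti-PD-1 and 20.3 ± 2.61% under anti-IgG, and Dll4 held 32.6 ± 4.65% under anti-PD-1 and 41.4 ± 2.62% under anti-IgG. For both the groups did not overlap (exact permutation p = 0.1 each, the smallest possible, and 0.2 adjusted over the 4 ligands). Within a library Jag1 stood at 0.818 to 1.12 times the FPKM of Dll4 with anti-PD-1 and at 0.403 to 0.577 times with anti-IgG, a ratio chosen after the values were seen. Jag2 held 32.8 ± 3.45% under anti-PD-1 and 33.1 ± 2.40% under anti-IgG (exact permutation p = 1). The share of Dll1 was 4.72 ± 0.57% under anti-PD-1 and 5.26 ± 0.26% under anti-IgG (exact permutation p = 0.3).

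Gene length moved with these differences. Across the tested genes, which share the same libraries and are no independent replicates, fold change and deposited gene length had a Spearman correlation of 0.49. Taken library by library, the correlation with gene length was 0.41, 0.30 and 0.35 under anti-PD-1. Under anti-IgG it was -0.19, -0.38 and -0.49, so the length trend went with the antibody group. The 4 receptors, of 8044 to 14232 bp, had log2 fold changes of 0.29 to 1.06, while 3 of the 4 ligands and both target genes, of 3265 to 6965 bp, had values of -0.52 to -0.11. Jag1, of 5827 bp, was at 0.39, and Jag2, of 6965 bp, was at -0.18. Notch3 (8044 bp) and Notch4 (8061 bp) are almost equal in deposited length and had log2 fold changes of 1.06 and 0.29. Their transcripts are less alike, with 6954 and 5892 coding bp and 1003 and 521 bp of 3' untranslated region. What part length has in these differences was not tested.

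**Figure D3:**
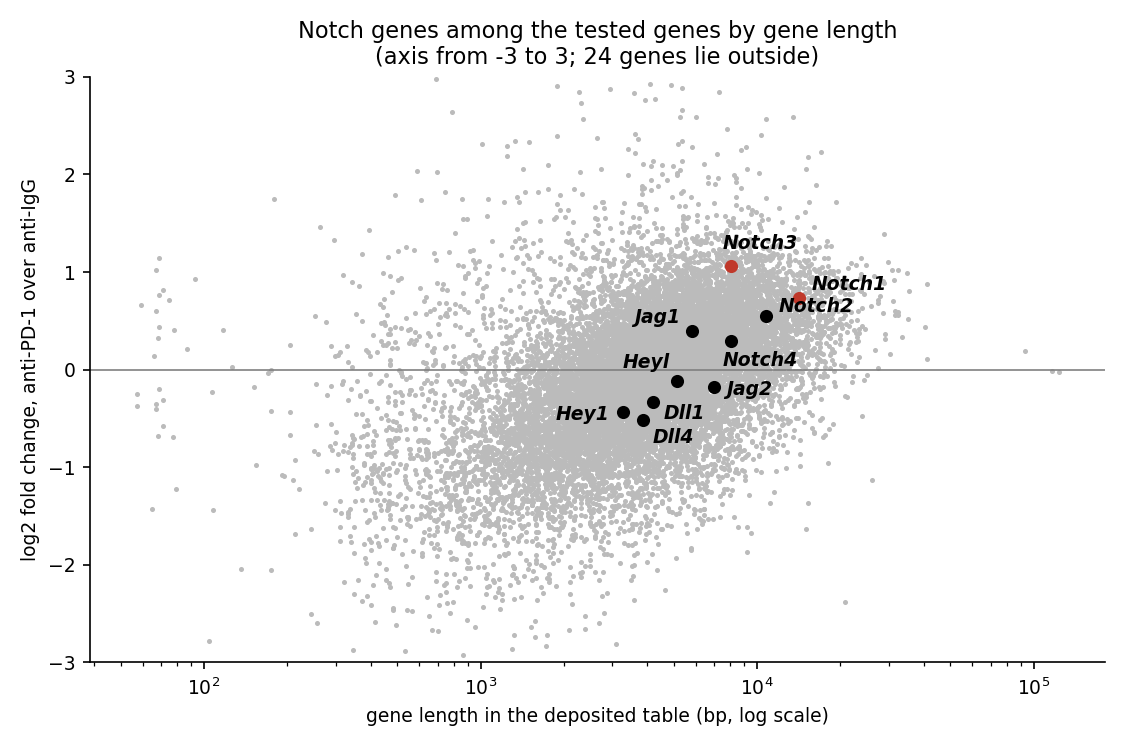
Log2 fold change of each tested gene (grey) against its deposited gene length on a log axis, with the 10 Notch genes marked (red: past the threshold; black: not). The receptors lie at the right and above 0, and Hey1, Dll4 and Dll1 lie further left and below 0.

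When each library's trend on the deposited gene length was taken out, 10.3% of all tested genes were past the threshold, and of the Notch genes Notch3 alone: its log2 fold change was 0.78 (SE 0.20; adjusted p = 0.0340 by edgeR). Notch1 then had 0.29 (SE 0.16; adjusted p = 0.267 by edgeR), Notch2 0.17 and Notch4 0.004. The ligands Jag2 (-0.39), Dll1 (-0.32) and Dll4 (-0.47) stayed below 0 and Jag1 (0.26) above it, none past the threshold (edgeR adjusted p from 0.127 to 0.436). When the trend on coding length and length of the 3' untranslated region was taken out instead, 5.63% of all tested genes and 0 of the 10 Notch genes were past the threshold in edgeR. At an unadjusted p under 0.05 stood 3 of them (Notch3, Jag2 and Dll4). The share of all tested genes at that level was not computed for this setting. Notch3 was then at 0.59 (SE 0.21; adjusted p = 0.109 by edgeR), Notch1 at 0.08, Notch2 at -0.29, Jag1 at -0.030 and Dll4 at -0.68 (SE 0.18; adjusted p = 0.0523 by edgeR).

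**Figure D4:**
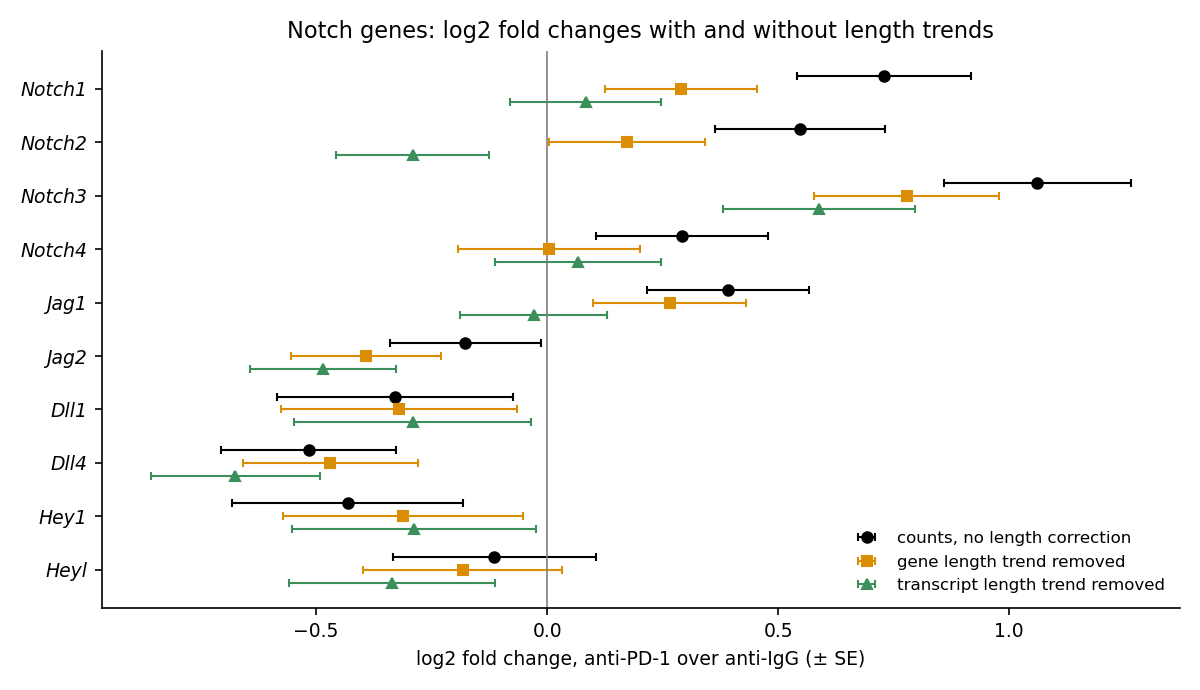
Log2 fold change (± SE) of the 10 Notch genes from the counts as deposited (black circles), with the gene length trend removed (orange squares) and with the transcript length trend removed (green triangles); values right of 0 are higher with anti-PD-1. Notch3 stays at 0.59 or above in all 3, and Notch2 lies at 0.55, 0.17 and -0.29.

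The rest of the pathway was followed in 49 other genes, of which 44 were tested. Of these 8 rose, 5 fell and 31 did not pass, which is 29.5% past the threshold against 21.1% of all tested genes, with a median log2 fold change of 0.15 against -0.03. With the gene length trend removed, 9.09% of the 44 passed, against 10.3% of all tested genes, and with the transcript length trend removed 6.82% passed, against 5.63% of all tested genes. The median of the 44 was 0.05 and 0.04 in these settings. The untested 5 were Hes5, Dll3, Dlk1, Dlk2 and Dner, with at most 13 reads in any library. Of the 12 genes of the transcription complex, 5 rose and 0 fell, and 1 was higher with the gene length trend removed. Rbpj, the DNA-binding partner of the Notch intracellular domain, had 60.7 ± 3.40 CPM under anti-PD-1, against 38.4 ± 5.91 CPM under anti-IgG (log2 fold change 0.66, SE 0.17; adjusted p = 0.0244 by edgeR). Ep300, a histone acetyltransferase that Mastermind recruits, had 80.2 ± 16.5 CPM under anti-PD-1, against 40.2 ± 3.32 CPM under anti-IgG (log2 fold change 1.00, SE 0.19; adjusted p = 0.00865 by edgeR). The acetyltransferase gene Kat2b (0.96), the co-repressor gene Spen (0.89) and the RBPJ-binding splicing factor gene Snw1 (0.75) rose too (edgeR adjusted p from 0.0144 to 0.0466), and Spen had 1 anti-PD-1 library within the anti-IgG range. These proteins serve many other pathways.

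Of the 4 tested targets outside the Hey1 and Heyl pair, Hes1 fell. This repressor, a classical Notch target, had 11.7, 17.1 and 21.9 CPM under anti-PD-1, against 22.3, 33.6 and 38.4 CPM under anti-IgG, and its log2 fold change was -0.90 (SE 0.27; adjusted p = 0.0371 by edgeR). In CPM the groups did not overlap, but their nearest libraries were close. In FPKM they overlapped, with 10.28 in anti-PD-1 library 3 and 10.26 in anti-IgG library 1. The log2 fold change of Hes1 was -0.47 with the gene length trend removed (edgeR adjusted p = 0.197). With the transcript length trend removed it was -0.36 (edgeR adjusted p = 0.317). Hey2 (-0.23, SE 0.26), Nrarp, a feedback inhibitor (-0.28, SE 0.34), and Hes6 (-0.48, SE 0.27) did not pass (edgeR adjusted p from 0.210 to 0.580).

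Among the 10 protease genes, Furin rose and Psenen fell. Furin, which encodes the convertase that cleaves Notch receptors on their way to the surface, had 92.0 ± 10.2 CPM under anti-PD-1, against 47.2 ± 19.5 CPM under anti-IgG (log2 fold change 0.96, SE 0.26; adjusted p = 0.0276 by edgeR). Psenen, a small subunit of gamma-secretase, had 15.4 ± 0.74 CPM under anti-PD-1, against 33.7 ± 3.37 CPM under anti-IgG (log2 fold change -1.13, SE 0.18; adjusted p = 0.00508 by edgeR). Other gamma-secretase genes lay on both sides of 0 and did not pass. The catalytic subunit gene Psen2 (-0.23) and the scaffold gene Ncstn (-0.10) were below 0. The subunit genes Aph1a (0.37), Aph1b (0.51) and Aph1c (0.54) were above it. The sheddase genes Adam10 (0.38) and Adam17 (0.42) did not pass either. Of the 5 glycosylation genes Mfng, a Fringe enzyme that modifies Notch repeats, fell (log2 fold change -0.84, SE 0.27; adjusted p = 0.0466 by edgeR), and 0 rose.

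Of the 13 ubiquitin ligase and endocytic genes, 2 rose and 2 fell. Dtx3l (0.78) and Itch (0.66), which encode ubiquitin ligases, rose, while Dtx3 (-1.19), of the same Deltex family, and Fbxw7 (-0.56), whose product targets the Notch intracellular domain for degradation, fell (edgeR adjusted p from 0.00864 to 0.0413). Of all 13 calls in the wider pathway, those of Psenen and Ep300 survived the loss of any 1 library. The others ended without 1 to 5 of the libraries, each of them without anti-IgG library 2. The call of Rbpj ended without anti-PD-1 library 1 or 3 or anti-IgG library 2 or 3 (edgeR adjusted p from 0.0654 to 0.112), and that of Hes1 without anti-PD-1 library 1 or 2 or anti-IgG library 2 or 3 (edgeR adjusted p from 0.0767 to 0.129). With the gene length trend removed, Kat2b, Dtx3l, Dtx3 and Fbxw7 stayed past the threshold, and with the transcript length trend removed Snw1, Dtx3 and Fbxw7 did. Psenen, at 1275 bp the shortest of the 44, was then at -0.48 and -0.03. Rbpj was at 0.24 and 0.28 and Ep300 at 0.55 and 0.48 with these trends removed, neither past the threshold.

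**Figure D5:**
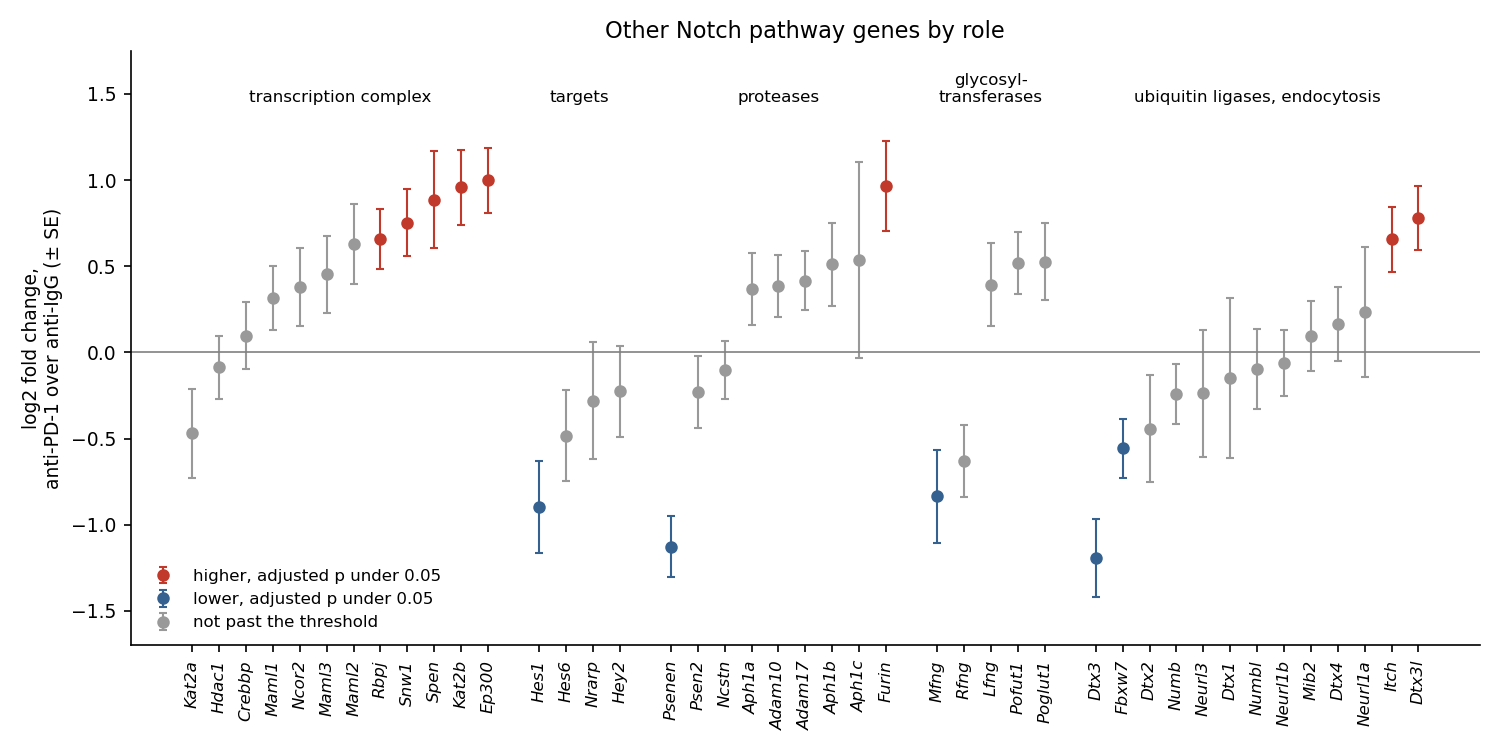
Log2 fold change (± SE) of 43 of the 44 tested other Notch pathway genes, grouped by role; red points are higher and blue points lower with anti-PD-1 at an adjusted p under 0.05, and grey points did not pass. Red points stand among transcription complex, protease and ubiquitin ligase genes, and Hes1 is the blue point among the targets.

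Markers of the vessel cells that carry these receptors were set beside them. The 6 pericyte markers summed to 402 to 479 FPKM under anti-PD-1 and 326 to 444 FPKM under anti-IgG, with a median log2 fold change of 0.19. Kcnj8 (-0.64) and Higd1b (-1.04) fell, while Pdgfrb (0.14), Rgs5 (0.24), Abcc9 (0.33) and Cspg4 (0.47) were above 0 and did not pass. The 6 smooth muscle markers summed to 69.5 to 121 FPKM under anti-PD-1 and 117 to 197 FPKM under anti-IgG, with a median log2 fold change of -0.19: 5 of 6 were below 0, Smtn (-1.03) alone fell, and Tagln was at 0.200 to 1.11 FPKM. The 8 endothelial markers summed to 241 to 268 FPKM under anti-PD-1 and 277 to 288 FPKM under anti-IgG, with a median log2 fold change of 0.01. The groups did not overlap in this sum. Of these markers, 5 were above 0 and did not pass, and 3 were below 0. Egfl7 (-1.90), a secreted endothelial protein, fell, while Emcn (-0.64) and Cdh5 (-0.25) did not pass (edgeR adjusted p = 0.0752 and 0.368). Without Egfl7 the endothelial sums were 233 to 258 FPKM under anti-PD-1 and 244 to 266 FPKM under anti-IgG and overlapped. Leaving this marker out was not planned beforehand. The 6 arterial endothelial markers summed to 30.2 to 32.8 FPKM under anti-PD-1 and 28.9 to 38.4 FPKM under anti-IgG. Of them 0 of 6 were called by edgeR and 1 was at an unadjusted p under 0.05, a level common in the whole table. What part such cell markers have in the Notch differences was not tested.

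Other markers bear on the label of the tissue. The 7 cardiomyocyte markers summed to 5952 to 8949 FPKM under anti-PD-1 and 8400 to 9627 FPKM under anti-IgG, with Ryr2 higher and Tnnt2 and Tnni3 lower. Of the 4 atrial markers, Sln was at 0 in all libraries and Myl7 at most at 0.169 FPKM, and these were not tested. Nppa, a natriuretic peptide gene that the overloaded ventricle also expresses, had 174, 136 and 134 FPKM under anti-PD-1 and 134, 545 and 793 FPKM under anti-IgG (log2 fold change -1.75, SE 0.55; adjusted p = 0.0573 by edgeR). Anti-IgG libraries 2 and 3 stood apart from the other 4. Myl4, at 0.0921 to 0.172 FPKM under anti-PD-1 and 0.166 to 0.443 FPKM under anti-IgG, had a log2 fold change of -1.29 (SE 0.51; adjusted p = 0.0949 by edgeR). What part this has in the Notch differences was not tested. Fibroblast markers summed to 254 to 404 FPKM under anti-PD-1 and 263 to 353 FPKM under anti-IgG. Of them 0 of 6 were called by edgeR and 1 was at an unadjusted p under 0.05, a level common in the whole table. Macrophage markers summed to 49.6 to 57.4 FPKM under anti-PD-1 and 44.3 to 121 FPKM under anti-IgG, with Adgre1 higher and C1qa lower. The T cell markers, at 1.26 to 1.74 FPKM under anti-PD-1 and 2.59 to 3.38 FPKM under anti-IgG, had Cd2 and Trac lower. Cd2 was near the floor, at 0.027 to 0.079 FPKM under anti-PD-1 and 0.349 to 0.414 FPKM under anti-IgG. Cd8a was on the other side, at 0.215 to 0.301 FPKM under anti-PD-1 and 0.119 to 0.154 FPKM under anti-IgG, and did not pass (log2 fold change 0.85, SE 0.48; adjusted p = 0.216 by edgeR). The other 3 T cell markers had too few reads to be tested. All marker fold changes, here and for the vessel cells, are from counts with no length trend removed. Markers that fell had deposited lengths from 847 bp (Higd1b) to 7752 bp (Tnnt2), with Trac at 935 bp and Cd2 at 1741 bp. Those that rose, Adgre1 and Ryr2, had 3238 and 28790 bp. What part length has in the marker calls was not tested.

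The profiles of the 10 genes over the 6 libraries were also compared with one another. Likeness was measured as the root mean square difference of log2 CPM, each gene about its own mean over the 6 libraries, and a smaller value is a closer match. The group difference enters this measure, so genes of unlike fold change lie far apart in it. The closest pair was Notch2 and Jag1 (0.11), followed by Jag2 and Dll1 (0.12). Notch3 was nearest to Notch1 among the members (0.32) and was less close to any member than Notch1 was to Jag1 (0.21). Heyl was likewise far from the others (0.32, nearest to Dll4). For 9 of the 10 genes, the closest profile among all tested genes was that of Bdp1 for Notch1, Zdhhc2 for Notch3, Dnajb6 for Notch4, Mpp5 for Jag1, N4bp3 for Jag2, Mtx2 for Dll1, Tmem204 for Dll4, Lsmem1 for Hey1 and Anxa5 for Heyl, at 0.03 to 0.10. Each is the smallest value of a search over all tested genes, and no chance level was computed.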

How the data were processed

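The authors deposited raw read counts per gene and FPKM values for 6 mRNA-seq libraries of mouse left ventricle. Counting with featureCounts on mm10 is named, without versions, in the submitters' processing notes; the aligner and strand setting are not given in the sources used here. Per the file headers the tables hold a gene length in bp, which the deposited FPKM use. The deposited counts were filtered (filterByExpr), scaled by TMM and tested 2-sided with edgeR 4.0.16 (glmQLFit, robust=TRUE) in R 4.3.3, with Benjamini-Hochberg adjustment over all 14807 tested genes and 0.05 as the threshold. The SE is the log2 fold change divided by the root of its F statistic. The test was checked on simulated counts, which held no length trend by library, so that check does not cover calls made under such a trend. Same-numbered libraries of the groups were not treated as pairs. Length trends were natural splines (5 degrees of freedom) of each library's log2 CPM (prior count 2), removed by offsets; transcript lengths came from GENCODE M21. Alternatives were RLE and upper quartile scaling, other count filters, DESeq2 1.42.0, limma 3.58.1 (voom, and trend on log2(FPKM + 1) and log2(FPKM + 0.1)), the replicate number as a block, and each library left out. The members and the gene lists were chosen with earlier results of these data known. The genes named were the 10 members, pathway genes past the threshold with Rbpj, Hes1, Hey2 and Nrarp, markers past the threshold and the closest profile of each member, of which some are not reported here; Hes6, the secretase, sheddase and untested genes, and the markers not past the threshold were named after their values were seen.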

Additional observations from a re-analysis of the deposited data

How the results depend on the processing

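The call of Notch1 ended with either length trend removed and without any of 4 libraries, and that of Notch3 with the transcript length trend removed and without 1 library. With the gene length trend removed, 1 of the 10 Notch genes, 4 other pathway genes and 1526 of all tested genes were past the threshold, against 2, 13 and 3118 without that step, and with the transcript length trend removed 0, 3 and 833; the cause was not tested. There Notch2 (-0.29) and Jag1 (-0.030) changed sign. Leaving out 1 library gave 0 to 2 Notch genes, 2 to 13 other pathway genes and 532 to 3646 genes in all, with 0 Notch genes and 532 genes in all without anti-IgG library 2, and 969, 1564 and 1766 in all without anti-PD-1 library 1, anti-IgG library 3 and anti-PD-1 library 3. Heyl, not called, ranged from -0.38 to 0.051 with 1 library left out. All other alternatives kept the 10 directions and the calls of Notch3 and Notch1. With the replicate number as a block, 2 Notch genes, 12 other pathway genes and 3367 genes in all passed; deviations of same-numbered libraries correlated at 0.12, -0.14 and 0.21, so the numbers were not taken as pairs. Upper quartile scaling put the median of all tested genes at -0.12 and no scaling changed the sign of a Notch gene. The share differences of Notch1 and Jag2, close to 0, changed sign: for Notch1 0.11 points with raw reads, 0.31 per longest coding transcript (added after the data were seen) and -1.67 to 1.71 with 1 library left out, and for Jag2 -2.23 to 0.89 with 1 library left out. The shares of Notch3, Notch4, Jag1 and Dll4 kept their direction in all of these, none of which removes a library's length trend. Dll1, with 87 to 128 reads a library, is the member that depth limits most.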
